A study of Mus musculus with 12 samples.

Results

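Calcium/calmodulin-dependent protein kinase II (CaMKII) is built from subunits encoded by 4 mouse genes, Camk2a, Camk2b, Camk2d and Camk2g, and all 4 were measured in skeletal muscle and testis of Bckdk mutant and wild-type mice. They were taken from the table of normalised counts by gene symbol, each symbol naming a single feature, and they are 4 of its 47730 features. The family was chosen with the muscle genotype values known, because Camk2a stood lower in mutant muscle, so the muscle genotype values are given as a description with no test. The testis genotype comparison and the comparison of the tissues did not enter that choice and are tested.

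CaMKII is a large ring of kinase subunits that calcium-loaded calmodulin switches on. Neighbouring subunits then phosphorylate each other on a threonine beside the calmodulin-binding segment, and this lets activity outlast the calcium pulse. Camk2a and Camk2b are best known from neurons, where they act at synapses, Camk2d is the main cardiac gene, and Camk2g is broadly expressed and known from smooth muscle. In skeletal muscle, CaMKII acts on the proteins of calcium release and uptake and on regulators of transcription. Camk2a also encodes, from a start within the gene, αKAP, an anchoring protein of the sarcoplasmic reticulum that has no kinase domain, and Camk2b has a muscle form.

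RNA came from gastrocnemius and plantaris muscle, combined, and from testis of male C57Bl/6J mice aged 5 to 6 months, collected 6 to 7 h into the light phase (ZT6 to ZT7). The mutants, BckdkM/M, were called KO in the sample titles, and the wild types were Bckdk+/+. The labels give 10 generations of backcrossing. Bckdk encodes the kinase that restrains branched-chain amino acid breakdown, and the labels do not say what the M allele is. The 4 groups of 3 libraries were mutant muscle (mice D, F and G), wild-type muscle (A, B and C), testis labelled mutant (D, E and F) and wild-type testis (again A, B and C), with each mouse number of the columns replaced by a letter. These are bulk tissues, so fewer cells of a type and less RNA per cell cannot be told apart.

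Several libraries stood apart. Each held 12852427 to 15795722 counted reads. Bckdk averaged 13.8 ± 1.3 normalised counts in mutant muscle and 2420 ± 206 in wild-type muscle, but 124 ± 12.8 in testis labelled mutant and 70.7 ± 2.68 in wild-type testis (SD, n = 3 each), which goes against the testis label. NeoR, a neomycin resistance gene in the tables, averaged 242 in mutant and 3.12 in wild-type muscle, and 17.2 in testis labelled mutant and 2.53 in wild-type testis, the direction of the muscle groups. Transcripts of pancreatic islet cells (12 genes, all above 10 in every library) summed to 32904 and 30997 in mutant muscle F and G, 13914 in mutant D, and 13701 to 16131 in wild-type muscle. In testis that sum was 11622 to 14037 in the libraries labelled mutant, and 19733, 19635 and 10805 in wild types A, B, C. Fast-fibre genes (8 markers), which belong to muscle, summed to 9475 to 10601 in testis labelled mutant, against 4479, 185 and 10628 in wild-type testes A, B, C. The tissues otherwise carried their own markers: 8 germ cell genes summed to 131379 to 161078 in testis, and the fast-fibre genes to at least 1093770 in every muscle library.

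The 4 genes are paralogs, and the stretch around the autophosphorylation site differs between them at a minority of its bases. The windows of 75 bases below come from coding exons of GENCODE M21 transcripts (GRCm38) and are shown to compare the members at this site. Capitals mark the codon of the autophosphorylated threonine.
Camk2b, chr11:5988961-5989035 (minus strand): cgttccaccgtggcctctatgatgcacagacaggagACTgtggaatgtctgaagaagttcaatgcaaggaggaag
Camk2d, chr3:126797705-126797779 (plus strand): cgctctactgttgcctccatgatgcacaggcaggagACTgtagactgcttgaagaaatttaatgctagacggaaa
Camk2g, chr14:20760403-20760477 (minus strand): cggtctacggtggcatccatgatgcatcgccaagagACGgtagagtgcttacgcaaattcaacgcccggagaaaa
Between Camk2b and Camk2d 16 of 75 bases differed, between Camk2d and Camk2g 21, and between Camk2b and Camk2g 24. The Camk2a window, which is not printed, differed from that of Camk2b at 10 bases, from that of Camk2d at 15 and from that of Camk2g at 23. The longest stretch identical between annotated transcripts of any pair of members was 23 to 34 bases, against reads of 150 bases. In GRCm38, Camk2b (ENSMUSG00000057897) lies on chromosome 11 at 5969644 to 6066362, minus strand. Camk2d (ENSMUSG00000053819) lies on chromosome 3 at 126596302 to 126846326, plus strand, and Camk2g (ENSMUSG00000021820) on chromosome 14 at 20734875 to 20794088, minus strand. No exon of another annotated gene lay over an exon of a member.

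In wild-type muscle all 4 genes were higher than in wild-type testis, by very different amounts. Camk2a had 9413, 9949 and 9711 normalised counts in wild-type muscle, against 27.4, 1.67 and 50.1 in wild-type testis, each in the order of mice A, B and C. The muscle values were close together and the testis values were not, with only 2 reads behind the value in testis B. Camk2b had 1833, 2198 and 2221 in wild-type muscle, against 67.1, 70.8 and 58.5 in wild-type testis. Camk2g, the broadly expressed member, had 2932, 2992 and 3176 in wild-type muscle, against 385, 371 and 346 in wild-type testis. Camk2d had 850, 752 and 846 in wild-type muscle, against 94.4, 89.1 and 96.0 in wild-type testis. The groups did not overlap for any member.

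By limma on log2(normalised count + 1), with Benjamini-Hochberg adjustment over all 19994 genes tested, 4 of 4 members passed an adjusted p below 0.05. That was also true of 87.9% of all genes, and 37.3% of all genes were called higher in muscle. Camk2a was 9.27 higher on the log2 scale (SE 0.93, adjusted p = 2.02e-05), and 19 genes had a larger log2 difference. That difference corresponds to 618-fold, while the ratio of means was 367, since the low value in testis B weighs more in a mean of logs. Camk2b was 4.97 higher (SE 0.12, adjusted p = 5.10e-09, 31.8-fold by means), and 585 genes had a larger difference. Camk2d was 3.12 higher (SE 0.10, adjusted p = 2.36e-08, 8.76-fold) and Camk2g 3.04 higher (SE 0.08, adjusted p = 6.28e-09, 8.26-fold). These 2 differed from each other by less than their errors. The size of the Camk2a difference depended on the wild-type testis libraries: it was 7.99 without B and 10.12 without C, and passed in both. It also depended on the method, at 8.71 by edgeR, 8.61 by DESeq2 and 6.34 with the authors' regularised log2 values.

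**Figure D1:**
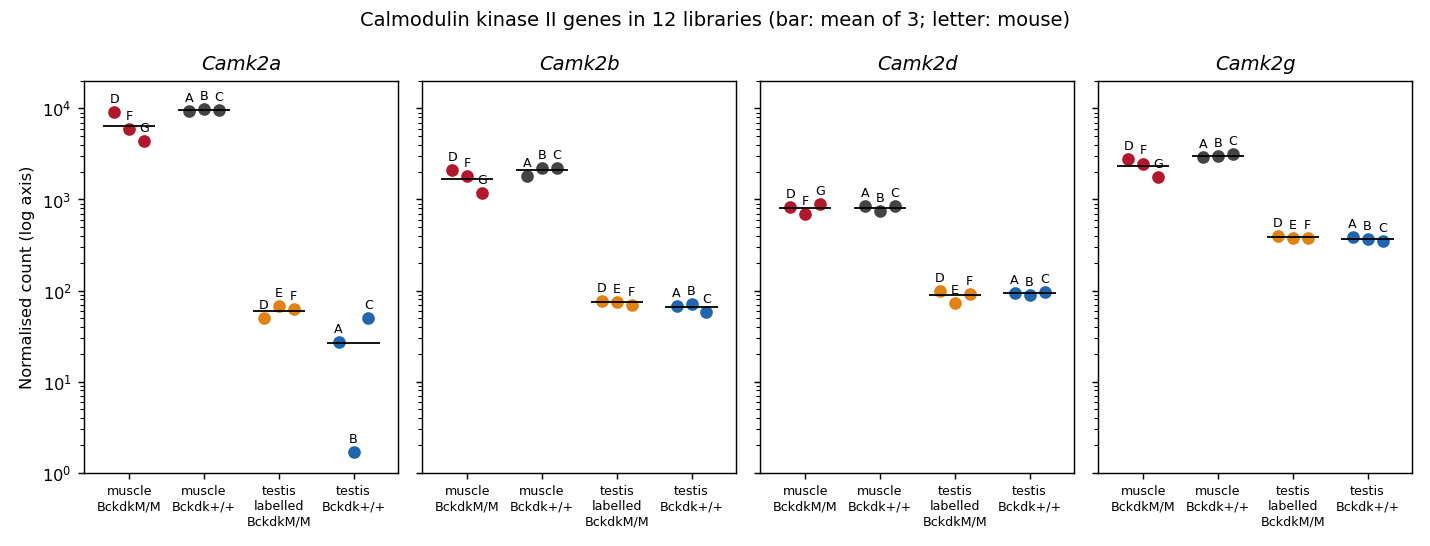
Normalised counts (vertical axis, log scale) of the 4 CaMKII genes in each library, with groups on the horizontal axis in the order mutant then wild type for each tissue. Points are libraries, letters are mice and bars are means of 3. Camk2a has the highest values in muscle and the widest spread in testis, where wild-type B stands at 1.67, and the Camk2d groups lie level in muscle.

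The make-up of the family differed between the tissues. Counts were divided by the length of all annotated exons of a gene, pooled, and each member was expressed as a share of the family's summed level per kilobase. Camk2a made up 58.8% ± 4.06 of the family in mutant muscle and 63.8% ± 1.00 in wild-type muscle. Camk2g followed with 25.7% ± 2.62 in mutant and 23.3% ± 0.683 in wild-type muscle, then Camk2b with 12.9% ± 1.1 in mutant and 11.2% ± 0.811 in wild-type muscle, and Camk2d with 2.64% ± 1.03 in mutant and 1.78% ± 0.161 in wild-type muscle (SD, n = 3 libraries each). In testis Camk2g was the main member, at 74.9% ± 1.09 in the libraries labelled mutant and 79.5% ± 3.65 in wild type. Camk2b held 10.2% ± 0.384 in testis labelled mutant and 9.94% ± 1.07 in wild-type testis. Camk2a held 10.0% ± 1.69 in testis labelled mutant and 4.86% ± 4.54 in wild-type testis, and Camk2d 4.91% ± 0.679 in testis labelled mutant and 5.74% ± 0.214 in wild-type testis.

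The order Camk2a, Camk2g, Camk2b, Camk2d held in every muscle group with 3 measures of length, and Camk2g came first in testis with all 3. The order below it in testis did not hold. Camk2d has 22493 bases of annotated exon but a longest transcript of 5524, and by coding length it held 15.4% ± 1.97 in testis labelled mutant and 17.9% ± 0.442 in wild-type testis, above Camk2b. Camk2a and Camk2b in testis labelled mutant did not differ beyond their spread by exon length. Summed over the family, the level per kilobase was 1453 ± 443 in mutant and 2037 ± 68.5 in wild-type muscle, and 79.9 ± 1.43 in testis labelled mutant and 72.2 ± 2.77 in wild-type testis. Gene-level counts do not separate αKAP from the kinase, so the Camk2a share is of both: 2 of the 6 protein-coding Camk2a transcripts in GENCODE M21 begin within the gene, at 60963554 and 60963600 on chromosome 18, where the gene (ENSMUSG00000024617, plus strand) spans 60925618 to 60988152 in GRCm38.

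**Figure D2:**
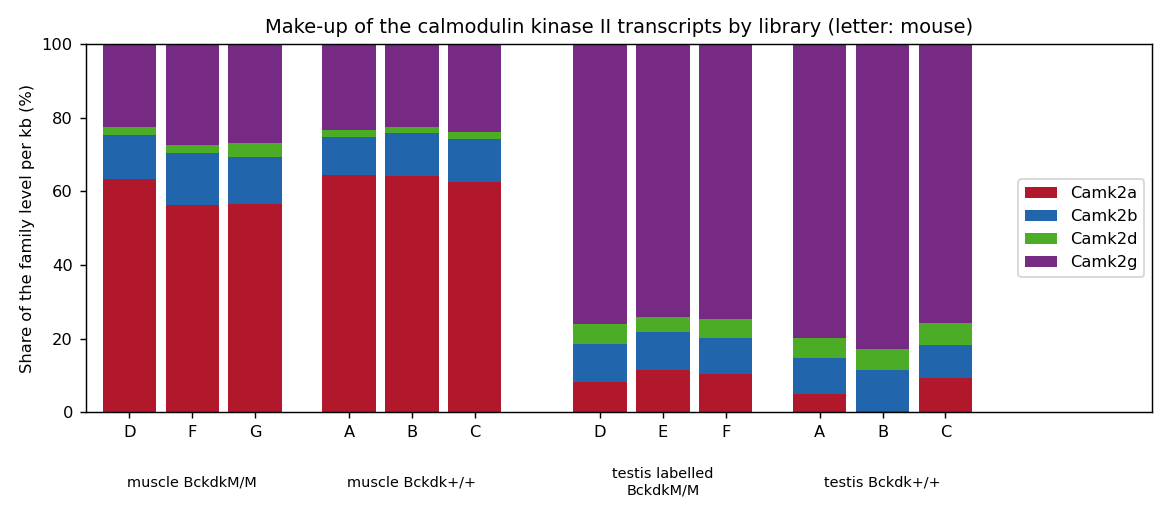
Share of the family's summed level per kilobase of exon (vertical axis, percent) held by each CaMKII gene in each of 12 libraries, ordered as mutant then wild type within each tissue (horizontal axis, letters are mice). Camk2a fills most of each muscle bar, 58.8% on average in mutant and 63.8% in wild type, and Camk2g fills most of each testis bar, 74.9% and 79.5%.

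In mutant muscle, Camk2a and Camk2g had values below every wild-type value, Camk2b was spread across the wild-type range and below it, and Camk2d was about level. Camk2a had 9067, 5942 and 4359 in mutant muscles D, F, G, against 9413, 9949 and 9711 in wild types A, B, C. Mutant D lay just under the lowest wild type, at 93.6% of the wild-type mean, and F and G were far below it, at 61.3% and 45.0%. The means were 6456 ± 2396 in mutant and 9691 ± 269 in wild-type muscle (SD, n = 3 each), a log2 difference of -0.65, with a coefficient of variation of 37.1% in mutants and 2.78% in wild types. Camk2g had 2776, 2484 and 1777 in mutant muscles D, F, G, against 2932, 2992 and 3176 in wild-type muscle (mutant mean 2345 ± 514, wild-type mean 3033 ± 127, log2 difference -0.40). D again came closest to the wild types and G lay farthest below.

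Camk2b had 2082, 1822 and 1185 in mutant muscles D, F, G, against 1833, 2198 and 2221 in wild-type muscle (mutant mean 1697 ± 462, wild-type mean 2084 ± 218, log2 difference -0.33). The groups overlapped: mutant D was above wild-type A, and only G was far below. Camk2d had 830, 690 and 887 in mutant muscle and 850, 752 and 846 in wild-type muscle (mutant mean 802 ± 102, wild-type mean 816 ± 55.6, log2 difference -0.03). Its groups overlapped, and mutant G, lowest for the other 3 genes, held the highest value of Camk2d. Over the 4 members the median log2 difference was -0.36, against -0.04 over all 16246 genes tested in muscle. The groups did not overlap, with the mutants lower, for 2 of 4 members, as for 8.85% of all genes. The limma fit across all genes, made as background, called 0.0369% of them at an adjusted p below 0.05. Since the family was chosen on this comparison, nothing is read from these counts.

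Mutant F and G, which hold the low Camk2a values, are also the muscle libraries with more islet transcripts. Without these 2 libraries the log2 difference was -0.10, given by mutant D alone. Leaving out 1 library in turn gave -0.93 (without mutant D) to -0.40 (without mutant G). Other measures moved in the same libraries. Mitochondrially encoded genes took 11.5% of normalised counts in mutant G, against 7.65% and 7.68% in mutants F and D and 7.91% to 8.21% in wild-type muscle. The 8 fast-fibre markers summed to 1670520, 1425190 and 1093770 in mutants D, F and G, and to 1512800 to 1901990 in wild types, with all 8 present in each. Their median log2 level against the wild-type mean was 0.07, -0.08 and -0.32 in D, F, G, and -0.14 to 0.20 in wild types. Among the 8, Myh4 had 589555, 450689 and 275412 in D, F, G, against 575299 to 673500 in wild types. Tnni2 (159333, 148043 and 138775) and Pvalb (202673, 190667 and 174588) stayed within their wild-type ranges. The 8 slow-fibre markers summed to 6130, 7703 and 8546 in mutants D, F, G, against 1550, 7974 and 2365 in wild types A, B, C. Testis transcripts (the 100 most abundant testis genes below 3% of their testis level in muscle) had a median of 1.30%, 0.465% and 0.464% of their testis level in mutants D, F, G, and 1.04% to 1.23% in wild types. The 12 neuron markers summed to 103, 163 and 180 in mutants D, F and G, and to 109 to 134 in wild-type muscle. Few of the 12 reached 10: 2, 4 and 4 in D, F, G, and 1, 5 and 2 in wild types A, B, C. Stmn2 alone held 49.0, 91.7 and 97.4 in D, F, G, and 50.9 to 60.3 in wild types. Chat, the enzyme of motor neuron transmitter synthesis, was at 0 in all 6. The part of these differences in the Camk2a values was not tested.

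Levels in F and G also differed by transcript length among other muscle genes, a comparison chosen after the values were seen. For RNA quality the labels give only a lower bound for all groups, an RNA quality number of 7.2, so its part was not tested. Protein-coding genes with a mean of at least 50 in muscle and a wild-type muscle mean over 20 times the testis mean were grouped by the longest annotated transcript, leaving the members out. For 52 genes under 1000 bases, the median log2 level, set against the mean of the wild types, was 0.08, 0.08 and 0.27 for mutants D, F, G, and -0.16, -0.09 and 0.27 for wild types A, B, C. Wild-type C thus stood as high as mutant G in this class. For 176 genes of 4000 to 6999 bases it was -0.00, -0.26 and -0.39 in the mutants and -0.05, 0.04 and 0.01 in the wild types. For 45 genes of 7000 bases or more it was -0.02, -0.33 and -0.60 in the mutants and -0.03, 0.05 and -0.01 in the wild types. In these longer classes the medians of F and G lay below those of all wild types. So they did for 327 genes of 2000 to 3999 bases (-0.15 and -0.29, wild types -0.09 to 0.09). For 174 genes of 1000 to 1999 bases they did not (-0.06 and -0.08, wild types -0.11 to 0.16). Genes within a class varied, and in G the quartiles of the class of 4000 to 6999 bases were -0.71 and 0.03. Camk2a, with a longest transcript of 4970 bases, stood at -0.10, -0.71 and -1.15 in D, F and G, and 51, 17 and 12 of the 176 genes of its length class were lower still. Camk2b, with 4125 bases, stood at 0.00, -0.19 and -0.81, and 93, 104 and 34 of the 176 were lower. Camk2d and Camk2g were less than 20 times higher in muscle and were not placed in a class. Camk2d, with the longest transcript of the 4 at 5524 bases, stood at 0.03, -0.24 and 0.12 in D, F and G, and Camk2g, with the shortest at 3703 bases, at -0.13, -0.29 and -0.77. The part of transcript length in these values was not tested, and the class of Camk2a is uncertain because its transcripts with an internal start are shorter.

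**Figure D3:**
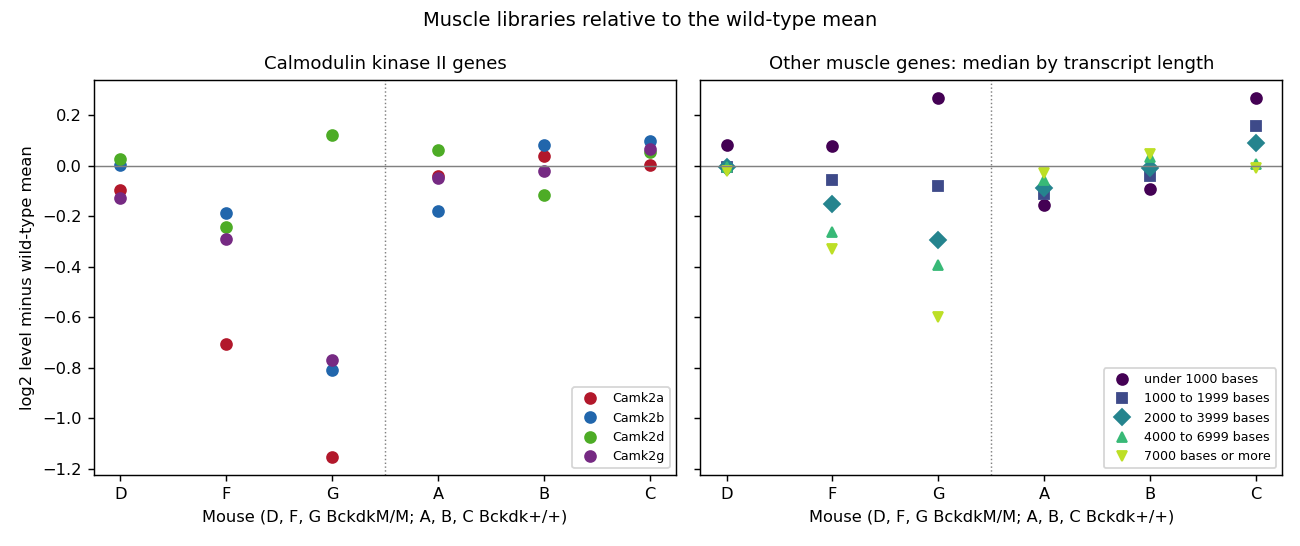
Level in each muscle library relative to the wild-type mean (vertical axis, log2), for the 4 CaMKII genes (left panel) and as the median of other muscle genes by longest transcript (right panel), with mutants D, F and G left of wild-type A, B and C. Mutant D lies near 0 in both panels, while Camk2a reaches -0.71 in F and -1.15 in G and the class of 7000 bases or more reaches -0.33 and -0.60.

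The genes whose profile over the 6 muscle libraries was nearest to that of Camk2a also had their low values in F and G. Likeness was the root mean square difference between log2 profiles centred on their own mean, over 11091 named genes with a mean of at least 50. The nearest were Fsd2 (0.04), Zfp526, a zinc finger protein (0.05), Prkab2, the regulatory β2 subunit of AMP-activated kinase (0.06), Myh14, a non-muscle myosin (0.06), and Mbd5, a methyl-CpG-binding domain protein (0.06). Fsd2 had 5406, 3593 and 2589 in mutant muscles D, F, G, against 5246, 5734 and 5639 in wild types A, B, C. Prkab2 had 6202, 4437 and 3174 in mutant muscle, against 6528, 6605 and 6812 in wild-type muscle. These are descriptions over 6 libraries that share the same outlying pair.

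Over all 12 libraries the profiles of the members parted, and each member had different nearest genes of 12718 compared. Those of Camk2a were the fast-fibre myosin-binding protein gene Mybpc2 (0.24), Cmya5 (0.24) and Xirp2 (0.27), all of muscle fibres. Mybpc2 shared the low value in wild-type testis B, with 24.2 there, against 224 in A and 580 in C. Nearest to Camk2b were Map7d1 (0.15), Tmcc2 (0.15) and the transcription factor gene Nfix (0.16), and nearest to Camk2d were the glutamate dehydrogenase gene Glud1 and a pair of genes tied to the proton pump of acidic organelles, Vma21 and Atp6ap1 (0.13 each). Nearest to Camk2g were Nt5dc3 (0.10), the clock-output transcription factor gene Tef (0.11) and the stress kinase gene Map2k4 (0.11).

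In testis no member passed the genotype comparison, and Camk2a had the widest spread of the 4. Camk2a had 49.4, 67.1 and 62.2 normalised counts in testes D, E, F labelled mutant, against 27.4, 1.67 and 50.1 in wild types A, B, C. The groups overlapped, since wild-type C lay above D. By limma over 19543 genes the log2 difference was 1.94 (SE 0.79, unadjusted 0.0298, adjusted p = 0.696), and it was 0.66 (adjusted p = 0.956) without wild-type B. Camk2b had 76.6, 75.4 and 70.2 in testis labelled mutant, against 67.1, 70.8 and 58.5 in wild-type testis (log2 difference 0.18, SE 0.17, adjusted p = 0.848). Camk2d had 99.8, 73.7 and 91.5 in testis labelled mutant, against 94.4, 89.1 and 96.0 in wild-type testis (-0.09, SE 0.16, adjusted p = 0.930). Camk2g had 397, 374 and 377 in testis labelled mutant, against 385, 371 and 346 in wild-type testis (0.06, SE 0.08, adjusted p = 0.902). Of 4 members 0 were called by limma, edgeR or DESeq2, and Camk2a was the 1 with an unadjusted p below 0.05 by limma. Limma called 0.0205% of all genes. The groups overlapped for all 4 members, while they did not for 13.4% of all genes. A p that misses the threshold does not show that the groups were alike.

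Testis Camk2a was low in wild-type testes A and B, as were muscle transcripts. As a share of its wild-type muscle mean, Camk2a stood at 0.510%, 0.692% and 0.641% in testes D, E, F labelled mutant, and at 0.282%, 0.0172% and 0.517% in wild-type testes A, B, C. Myh4, the fast myosin heavy chain of muscle fibres, stood at 0.629%, 0.569% and 0.573% in D, E and F and at 0.237%, 0.000807% and 0.617% in A, B and C. Both genes were lowest in B, next lowest in A and close together in the other 4 libraries. Among those 4 libraries the order of Camk2a was the reverse of that of Myh4. The 100 most abundant muscle genes that were below 3% of their muscle level in testis, leaving Camk2a out, had a median of 0.766% to 0.822% in testis labelled mutant, and 0.499%, 0.287% and 0.856% in wild types A, B, C. The other members stood well above that level in every testis library: Camk2b at 2.81% to 3.68%, Camk2d at 9.03% to 12.2% and Camk2g at 11.4% to 13.1% of wild-type muscle, with no low value in B. The 100 genes were picked by the 3% cut, which Camk2a met. Where the members stand against that median is thus partly set by the cut. The part of muscle transcripts in the testis level of Camk2a was not tested. Neuron markers summed to 366 to 416 in testis labelled mutant and 362 to 456 in wild-type testis. Most of each sum was 1 gene, Tubb3, at 242 to 300 in testis labelled mutant and 239 to 317 in wild-type testis. Of the 12 markers, 3 to 5 reached 10 in a testis library.

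**Figure D4:**
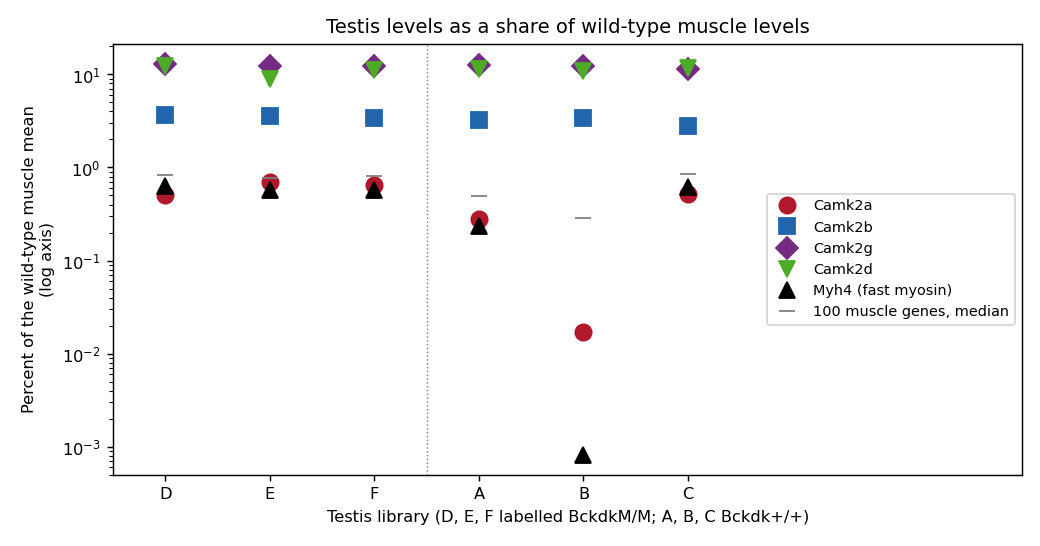
Level in each testis library as a percent of the wild-type muscle mean (vertical axis, log scale) for the 4 CaMKII genes, Myh4 and the median of 100 muscle genes, with libraries labelled mutant left of wild types. Camk2a lies between 0.510% and 0.692% in D, E, F and C, and both Camk2a and Myh4 are lower in A and B, while Camk2b, Camk2d and Camk2g stay between 2.81% and 13.1%.

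The genes around CaMKII in the pathway, 47 in 5 lists, were called in both directions between the tissues. Of 44 measured, 23 were called higher and 15 lower in wild-type muscle than in wild-type testis (median log2 difference 0.85, against -0.48 over all genes). The share called, 86.4%, was near the 87.9% of all genes, and 52.3% were called higher, against 37.3% of all genes. Of the calmodulin genes, which carry the calcium signal to the kinase, Calm3 was higher in muscle (8058 ± 1180 in muscle and 4439 ± 263 in testis, log2 0.85, adjusted p = 1.56e-04). Calm2 was lower (4437 ± 605 in muscle and 6724 ± 303 in testis, -0.61, 9.30e-04), as was Calml3, at 4.83 ± 3.69 in muscle and 49.1 ± 7.05 in testis (-3.32, 2.95e-04). Among inhibitors and phosphatases of CaMKII, 3 of 8 were higher and 5 lower in muscle. The phosphatase catalytic genes Ppp1ca (9.88-fold by means, log2 3.30, adjusted p = 3.16e-08) and Ppp1cb (6.94-fold, 2.79, 9.97e-09) were higher. The inhibitor gene Camk2n2 (13.7 ± 1.75 in muscle and 115 ± 17.4 in testis, -2.98, 6.16e-06) and the CaMK phosphatase gene Ppm1e (22.9 ± 6.49 in muscle and 164 ± 5.92 in testis, -2.83, 1.19e-05) were lower.

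Of the other calmodulin-dependent kinases, 2 of 8 were higher and 4 lower in muscle. Camk1 (705 ± 102 in muscle and 39.9 ± 11 in testis, log2 4.13, adjusted p = 3.21e-07) and its relative Pnck (189 ± 19.1 in muscle and 14.7 ± 2.60 in testis, adjusted p = 1.15e-06) were higher. Camk4, a nuclear kinase of neurons, lymphocytes and male germ cells, was lower, at 17.1, 1.08 and 1.28 in wild-type muscles A, B, C, against 780, 784 and 703 in wild-type testis (-7.42, SE 0.75, adjusted p = 2.14e-05). Camk1g was lower too (1.55 ± 0.639 in muscle and 62.3 ± 18.2 in testis, -4.62, 2.42e-06). Calcineurin, the calcium-activated phosphatase, had 6 of 8 genes higher and 2 lower. Rcan2, a calcineurin regulator, was 19.2-fold higher by means (log2 4.22, adjusted p = 3.81e-08), the regulatory subunit gene Ppp3r1 13-fold (3.70, 1.24e-08) and the catalytic subunit gene Ppp3cb 10.6-fold (3.41, 6.87e-09). Ppp3r2, the testis regulatory subunit, was 52.8 ± 5.22 in muscle and 5032 ± 224 in testis (-6.55, 9.58e-10).

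Of the targets and downstream factors, 10 of 15 measured were higher and 2 lower in muscle. Atp2a1, the fast-fibre calcium pump, differed by 10.31 on the log2 scale (SE 1.61, adjusted p = 3.32e-04) and Ryr1, the calcium release channel, by 7.78 (SE 0.38, adjusted p = 2.34e-07). Both also had low values in wild-type testis B, at 15.0 for Atp2a1 and 115 for Ryr1, against 918 and 225 in A and 2631 and 405 in C. Mef2c, a transcription factor gene of muscle, was 8458 ± 849 in muscle and 92.2 ± 25 in testis (6.53, adjusted p = 9.45e-09). Cacna1s, the voltage sensor that opens the release channel, was 17443 ± 510 in muscle and 212 ± 36.0 in testis (6.37, 2.32e-09).

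**Figure D5:**
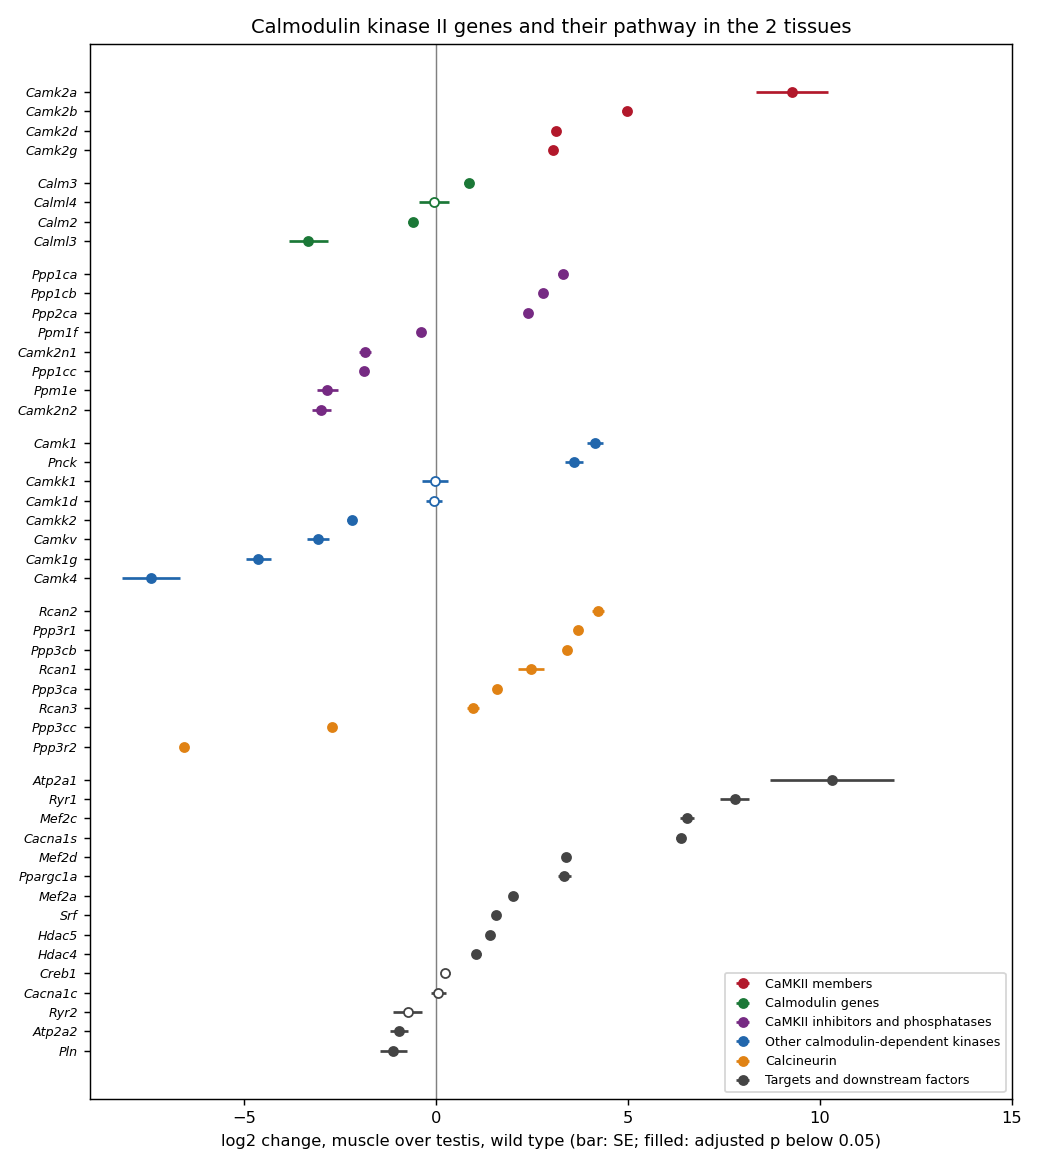
Log2 difference of wild-type muscle over wild-type testis (horizontal axis, bars are SE) for the 4 CaMKII genes and 43 pathway genes, grouped by list. Filled points passed an adjusted p below 0.05; all 4 CaMKII genes lie to the right of 0, led by Camk2a at 9.27, while the kinases and inhibitors spread to both sides, with Camk4 at -7.42.

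Between genotypes, 0 of the pathway genes were called in either tissue by limma, edgeR or DESeq2, and 2 in muscle and 4 in testis had an unadjusted p below 0.05 by limma, as did 9.52% of all genes in muscle and 7.09% in testis. In muscle 13 of 42 measured were higher and 29 lower in mutants, with a median log2 difference of -0.08, against -0.04 over all genes. The values with the smallest p followed the order of Camk2a in the mutants. Cacna1s had 16057, 12361 and 7635 in mutant muscles D, F, G, against 17630, 17832 and 16866 in wild types A, B, C (log2 -0.60, SE 0.24, adjusted p = 0.519 by limma). Ryr1 had 44676, 36327 and 21296 in mutant muscle, against 47558, 50887 and 46398 in wild-type muscle (-0.57, SE 0.28, adjusted p = 0.534). In both genes the mutants lay below all wild types, and D came closest. Camk4, near the floor in muscle, was 14.6 ± 2.35 in mutants and 6.48 ± 9.18 in wild types (1.81, SE 0.82, adjusted p = 0.519).

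The other muscle lists held smaller differences. Camk2n1, which encodes a protein inhibitor of CaMKII, had 347, 419 and 483 in mutant muscles D, F, G, against 315, 312 and 377 in wild-type muscle (0.31, SE 0.16, adjusted p = 0.553), and the groups overlapped. Ppp1cc, a phosphatase catalytic gene, was 1695 ± 422 in mutant and 2072 ± 157 in wild-type muscle (-0.32, adjusted p = 0.556). Calm3 was 6767 ± 1108 in mutant and 8058 ± 1180 in wild-type muscle (-0.26, adjusted p = 0.603), and the calmodulin-like gene Calml4 was 26.9 ± 8.34 in mutant and 16.5 ± 4.60 in wild-type muscle (0.66, adjusted p = 0.566). Ppp3cb was 4479 ± 717 in mutant and 5253 ± 319 in wild-type muscle (-0.24, adjusted p = 0.590), Ppp3r2 was 35.0 ± 25.3 in mutant and 52.8 ± 5.22 in wild-type muscle (-0.87, adjusted p = 0.560), and Pnck was 160 ± 13.4 in mutant and 189 ± 19.1 in wild-type muscle (-0.24, adjusted p = 0.615).

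In testis 20 of 44 measured pathway genes were higher and 24 lower in the libraries labelled mutant, with a median of -0.02, against 0.03 over all genes. Calm2 was 6995 ± 367 in testis labelled mutant and 6724 ± 303 in wild-type testis (0.06, SE 0.05, adjusted p = 0.853). Ryr2, a calcium release channel, was 19.2 ± 6.87 in testis labelled mutant and 35.5 ± 10.5 in wild-type testis (-0.87, SE 0.35, adjusted p = 0.696 by limma), and Atp2a2, the calcium pump of slow fibres and many other cells, was 2863 ± 119 in testis labelled mutant and 3169 ± 152 in wild-type testis (-0.15, SE 0.06, adjusted p = 0.696 by limma). The kinase gene Camkk1 was 13.1 ± 2.28 in testis labelled mutant and 21 ± 0.829 in wild-type testis (-0.65, adjusted p = 0.705), and Pnck was 24.5 ± 8.15 in testis labelled mutant and 14.7 ± 2.60 in wild-type testis (0.67, adjusted p = 0.726). Camk2n2 (-0.32, adjusted p = 0.785), Ppm1e (-0.13, 0.846), Ppp3r1 (0.19, 0.748) and Ppp3r2 (0.08, 0.799) were the remaining genes with the smallest p in their lists.

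The start regions of Camk2b and Camk2d are shown because these 2 members differ in how far muscle exceeds testis, and both were listed in the RefSeq promoter table (GRCm38.p6). Each line gives the 250 bases before the RefSeq start, which in both genes lies downstream of the outermost GENCODE start, so the windows fall within the gene spans given above, and capitals mark the GC box GGGCGG or its reverse complement CCGCCC.
Camk2b, chr11:6065749-6065998 (minus strand): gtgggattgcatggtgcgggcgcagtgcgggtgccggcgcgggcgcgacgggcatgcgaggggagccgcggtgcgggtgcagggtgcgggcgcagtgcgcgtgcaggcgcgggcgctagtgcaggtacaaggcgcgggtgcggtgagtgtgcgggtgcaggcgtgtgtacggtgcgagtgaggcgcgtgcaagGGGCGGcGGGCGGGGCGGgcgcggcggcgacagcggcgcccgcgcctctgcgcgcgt
Camk2d, chr3:126596701-126596950 (plus strand): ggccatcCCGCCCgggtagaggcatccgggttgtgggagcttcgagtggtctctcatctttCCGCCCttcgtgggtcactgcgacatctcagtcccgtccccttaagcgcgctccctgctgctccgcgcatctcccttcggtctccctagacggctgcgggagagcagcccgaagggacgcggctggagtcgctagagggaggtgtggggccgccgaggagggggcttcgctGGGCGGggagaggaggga
Each held 3 GC boxes, 2 of which overlap by 1 base in Camk2b, and 32.7% of 32851 promoter windows of this length held at least 1. G and C made up 78.4% of the Camk2b window, more than in 98.1% of windows, and 68.4% of the Camk2d window, more than in 88.4%. The E-box CANNTG, bound by muscle basic helix-loop-helix factors, was in neither window and in 66.2% of all windows. The MEF2 box (0.508% of windows), the CArG box (1.47%) and TATAAA (12.4%) were in neither, searched on both strands. A motif match or its lack describes these letters and says nothing of a factor's binding.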

How the data were processed

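Per the labels' protocols, libraries were made from polyA-selected RNA and read as pairs of 150 bases. The submitters' processing notes give the build GRCm38.p4 and, with no role stated, DESeq2 1.46.0, HTSeq 0.11.2, HISAT2 2.1.0, fastp 0.23.4 and Picard 1.119. How strand was treated is not given in the sources used here. The deposited signal values are read counts that the authors scaled with 1 size factor for each of the 12 libraries. Divided by the value of 1 read, 100% of values were whole within 0.02 in the library with the lowest share, and these recovered reads give the depth. The authors also deposited regularised log2 (rlog) values, used as an alternative. In 1 testis library labelled mutant, 26 cells had been turned into dates and were treated as missing; no member was among them.

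The members, lists, naming rule and tests were chosen with earlier results of these data known, and the transcript length classes after the values were seen. Tests used limma 3.58.1 in R 4.3.3 (lmFit, eBayes with trend, two-sided) on log2(normalised count + 1), keeping genes that reached 10 in 3 or more of the 6 libraries compared and Benjamini-Hochberg adjustment over all genes tested. All 4 members passed that filter in each comparison. On the log2(value + 1) scale the change of a low gene can be understated by the added 1, or enlarged where 1 library has few reads. For Camk2a in testis by genotype the difference was 1.94 by limma, against 1.14 by edgeR and 1.145 by DESeq2 on recovered reads. A permutation of 3 against 3 cannot reach the threshold, so the spread was estimated across genes. In each pathway list, up to 4 called genes by size of change were named, or else the 2 with the smallest p, and 1 gene is counted but not reported here by name. Library columns name the mouse, not the replicate number of the sample title, so libraries are placed by group, and p-values measure the spread between mice. The wild-type muscle and testis libraries came from the same 3 mice by those numbers. The correlation of their deviations from the group means was -0.04, 0.00 and -0.01 for mice A, B and C over 13516 genes. The alternatives were pseudocounts of 0.5 and 8, filters, scalings, rlog values, edgeR 4.0.16 and DESeq2 1.42.0 on recovered reads, all libraries in 1 model, each library left out, libraries with more islet transcripts (over 1.25 times the tissue's median) left out, and the mouse as a block. The count tests were kept as alternatives because the deposited values are scaled. The script was tested on simulated data. Coding windows came from GENCODE M21 and promoters from RefSeq.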

Additional observations from a re-analysis of the deposited data

Results flagged for a closer look

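For 2 CaMKII genes every mutant muscle library lay on one side of the wild-type mean and every testis library labelled mutant on the other. The muscle minus testis difference of their log2 differences was -2.59 for Camk2a (-0.65 in muscle and 1.94 in testis, and -1.31 without wild-type testis B) and -0.46 for Camk2g (-0.40 and 0.06). Among the pathway genes named in the genotype comparisons, the same held for Pnck (-0.90), Ppp3r1 (-0.34), Cacna1s (-0.82), Ryr1 (-1.32) and, the other way round, Atp2a2 (0.57). Other pathway genes met it too, among them Mef2c, Ppp3ca and Atp2a1. Atp2a1 had 419083, 334566 and 202170 in mutant muscles D, F, G, against a wild-type mean of 428981. In testes D, E, F labelled mutant it had 2529, 2307 and 2308, against a wild-type mean of 1188. The share of all genes that met it was not counted. The muscle value of Camk2a is the one the family was chosen on. These differences between tissues were not tested. In testis Bckdk goes against the label and NeoR goes with it, and mice D and F gave libraries to both tissues.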

How the results depend on the processing

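The 4 members stayed called as higher in wild-type muscle than in wild-type testis, and 0 stayed called in testis by genotype, under every alternative run, though with a mean of at least 50 required Camk2a was not tested in testis. Pathway calls between genotypes stayed at 0, and between tissues 34 to 39 were called, against 38. With the mouse as a replicate block, 4 of 4 members were called between the tissues and 17403 genes in all, against 17575 without it. No paired analysis was possible for the genotype comparisons because the groups share no mouse. The share of Camk2a in the wild-type muscle family, 63.8% by exon length, was 57.0% by longest transcript and 66.4% by coding length. Of the values of single genes under alternatives, 910 kept their direction and call or stayed within the spread, and 1 moved, Camk2a in muscle without the libraries with more islet transcripts (-0.10). Scaling by TMM within the wild-type libraries put the median of all genes between tissues at -0.31, against -0.48, and Camk2a at 9.42. Over all genes, limma called 6 in muscle by genotype (3 to 497 with 1 library left out, 497 without mutant D, 14 with no filter, 28 in the model of all libraries, 36 by DESeq2) and 4 in testis (1 to 6 with 1 library left out, 1 with a pseudocount of 0.5, a mean of at least 50, TMM or the islet-rich libraries left out, 2 with rlog values, 10 by DESeq2). With 3 libraries a group, small genotype differences may have been missed.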
